A study of Mus musculus with 2 samples.

Results

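Major urinary proteins (MUPs) are small secreted proteins of the lipocalin family. The mouse liver makes them in large amounts and releases them into the blood, from which they pass into the urine and carry volatile pheromones. Their genes are known to be expressed more strongly in males than in females and to depend on the pulsatile release of growth hormone, which acts through its receptor and the transcription factor STAT5B. The data on 10 of them, *Mup1*, *Mup3*, *Mup7*, *Mup9*, *Mup10*, *Mup11*, *Mup12*, *Mup17*, *Mup20* and *Mup21*, are described here. They were taken by symbol from the 32285 genes listed, of which 22 are *Mup* genes, and had been selected on their measured level in hepatocytes, which was known to differ between the libraries of this study. The differences between the libraries are therefore descriptions of the genes that were picked.

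Nuclei were isolated from livers of male C57BL6/J mice fed a diet that induces metabolic dysfunction-associated steatohepatitis (MASH) and profiled by 3′ single-nucleus RNA-seq (snRNA-seq). The diet supplied 40% of energy as fat and 20% as fructose, held 2% cholesterol, and was given for 5 months from an age of 10 to 12 weeks. One library was labelled Flox (genotype *Themis* flox/flox) and the other HKO (genotype *Themis* Alb-Cre, a hepatocyte-specific ablation in which the albumin promoter drives Cre). The study asked what the loss of *Themis* in hepatocytes changes in the MASH liver, and pooled tissue of 4 mice per genotype into 1 library. There is therefore no replicate and no test between the genotypes, and genotype cannot be told apart from any other difference between the preparations. All intervals are at the 95% level and cover counting error only.

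In total, 58171337 unique molecular identifiers (UMIs, each standing for 1 captured transcript) came from 9363 Flox-labelled nuclei and 40475938 from 10748 HKO-labelled nuclei, and the median nucleus had 6216 and 2227.5 of them. The libraries shared 27 cell barcodes. *Themis*, the targeted gene, was not lower in hepatocytes of the HKO-labelled library, with 162 CPM in Flox-labelled and 250.2 CPM in HKO-labelled hepatocytes (CPM, a gene's UMIs scaled to a common total per library). A 3′ count cannot show an exon's deletion, so it checks the label in neither direction, and no difference below is put down to losing *Themis*. The label male was matched in both libraries, with *Xist* at 1.09 and 1.91 CPM over all kept nuclei and 4 Y-linked genes at 112 to 198 CPM each.

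Hepatocyte nuclei were taken as those in clusters with hepatocyte markers. There were 5856 in the Flox-labelled library and 4550 in the HKO-labelled library, and the values below come from the 5672 and 3973 of them with at least 3000 UMIs. Their median depths were 7535 and 6150 UMIs, and their totals 45939972 and 26578217 UMIs. The 8 hepatocyte markers, among them *Alb*, *Apob* and *Cps1*, summed to 9852 and 7377 CPM in these nuclei. The marker lists of macrophages, B cells, dendritic cells, plasma cells, proliferating cells, endothelial cells and hepatic stellate cells (HSCs) summed to at most 45.4 CPM each. Cholangiocyte markers were at 50.9 and 82.2 CPM, with *Krt7* at 0 UMIs in the HKO-labelled library, and T cell markers, of which *Themis* is one, at 163 and 252 CPM, nearly all of it *Themis*. The part of these cells in the results was not tested. The 3 hepatocyte clusters were not filled alike. Cluster 1, led by the periportal genes *Sds*, *Etnppl* and *Hal*, was the largest in the Flox-labelled library, and cluster 0, led by *Plin4*, *Cyp4a14* and *Acaa1b*, was the largest in the HKO-labelled library.

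The 10 genes lie within 2084 kb of mouse chromosome 4 (GRCm38 chr4:60066469-62150863), all on the minus strand, and 7 of them form a group by sequence. *Mup7*, *Mup9*, *Mup1*, *Mup10*, *Mup11*, *Mup12* and *Mup17*, in this order along the chromosome from *Mup7* at chr4:60066469-60070475 to *Mup17* at chr4:61591929-61595871, are near-identical copies. Their coding sequences were 98.4% to 99.6% identical over the 21 pairs. *Mup20*, *Mup3* and *Mup21* sit beyond them at chr4:62050234-62054158, chr4:62083476-62087342 and chr4:62147932-62150863. *Mup20*, which encodes darcin, a male urinary pheromone that attracts females, was 90.1% to 91.4% identical to the near-identical copies. *Mup3* was 82.4% to 83.7% and *Mup21* 83.7% to 84.8% identical to them. The grouping matters here because reads can be told apart only where copies differ.

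A stretch of 60 coding bases in exon 4 shows where the genes differ. It was chosen, among stretches without gaps near the transcript end, as one with the most positions that vary among the 10 genes (12 of 60). It is given 5′ to 3′ on the coding strand from the GENCODE annotation of GRCm38, and capitals mark bases that differ from *Mup20*. The stretch of *Mup11* is the same in 6 of the 10 genes (*Mup1*, *Mup7*, *Mup9*, *Mup10*, *Mup11* and *Mup12*), so that these 60 bases alone cannot tell those genes apart. A sequenced read is longer than the stretch and can reach bases that differ. The stretches lie at chr4:60660187-60660246 (*Mup11*), chr4:61593648-61593707 (*Mup17*), chr4:62051928-62051987 (*Mup20*), chr4:62085231-62085290 (*Mup3*) and chr4:62148611-62148670 (*Mup21*).
Mup11: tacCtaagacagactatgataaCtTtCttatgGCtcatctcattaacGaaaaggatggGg
Mup17: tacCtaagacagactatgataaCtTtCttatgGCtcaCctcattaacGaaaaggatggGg
Mup20: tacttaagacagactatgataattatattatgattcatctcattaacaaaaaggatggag
Mup3: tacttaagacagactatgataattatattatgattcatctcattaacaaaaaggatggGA
Mup21: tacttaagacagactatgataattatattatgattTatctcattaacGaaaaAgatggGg

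*Mup11* differed from *Mup20* at 8 of these 60 bases and *Mup17* at 9, whereas *Mup3* differed at 2 and *Mup21* at 4. Whole coding sequences gave another order. *Mup3* was 87.1% and *Mup21* 88.0% identical to *Mup20*, below the 90.1% to 91.4% of the near-identical copies. Since the libraries were read from the 3′ end, the last 500 bases of each transcript were also searched for windows as long as a sequenced read that occur in no other listed gene. All 350 windows of *Mup20*, *Mup3* and *Mup21* were found in that gene alone. The share was 83.4% for *Mup17*, 47.1% for *Mup9*, 36.6% for *Mup11*, 14.3% for *Mup12* and 0.857% for *Mup7*, and it was 0 for *Mup10* and *Mup1* in the transcripts used. Another transcript gave 62% for *Mup7* and 100% for *Mup1*. Counts of *Mup20*, *Mup3* and *Mup21* can therefore be read as those genes. Reads of the near-identical copies may be split among them or left uncounted. Each of these copies shared a window with 11 to 15 other listed genes, some of them outside the 10. Their sum is thus firmer than the value of a single copy, but it is not closed to such sharing or loss.

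Among the 6 genes that could be compared, the sequence before the start site also set *Mup3* and *Mup21* apart from the near-identical copies. No window was available for *Mup1*, *Mup12* and *Mup20*, and that of *Mup7* lacked the box used here. The 80 bases that end in TATATAAG, the TATA-like box in capitals, are shown for *Mup9* and *Mup17* of the near-identical copies and for *Mup3* and *Mup21*, from the RefSeq table of GRCm38.p6 (minus strand, 5′ to 3′), because they are the 2 most and the 2 least pericentral genes in the Flox-labelled library that the table holds. They lie at chr4:60421976-60422055, chr4:61595850-61595929, chr4:62087321-62087400 and chr4:62150842-62150921.
Mup9: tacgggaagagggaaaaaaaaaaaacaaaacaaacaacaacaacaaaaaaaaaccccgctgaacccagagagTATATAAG
Mup17: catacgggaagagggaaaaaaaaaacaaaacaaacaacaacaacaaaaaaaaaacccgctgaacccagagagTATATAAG
Mup3: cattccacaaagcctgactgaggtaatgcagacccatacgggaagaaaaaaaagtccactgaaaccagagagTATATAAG
Mup21: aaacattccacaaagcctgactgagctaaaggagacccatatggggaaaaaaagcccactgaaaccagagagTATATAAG

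*Mup9* and *Mup17* were 93.9% identical over this stretch and *Mup3* and *Mup21* 85.5%, against 62.7% between *Mup17* and *Mup3*. *Mup10* was less close to the other copies, at 84.1% to *Mup9*. The table held a window of 300 bases (250 before and 50 after the start) for 7 of the 10 genes. TATATAAG, sought on both strands, was in 6 of these 7 (not in that of *Mup7*) and in 1.01% of the 32851 windows of all genes. TTCNNNGAA, the core motif bound by STAT proteins, was in none of the 7 and in 8.30% of all windows, which says only that these letters are not in this window.

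Expression of the 10 genes was first compared between the libraries. All 10 had a lower CPM in hepatocytes of the HKO-labelled library, but by very unequal amounts. Summed, they gave 264696 UMIs in the Flox-labelled library, or 5762 CPM (5740 to 5784), and 45831 UMIs in the HKO-labelled library, or 1724 CPM (1709 to 1740). The sum was thus 3.34-fold lower (3.31 to 3.37) in the HKO-labelled library. Of the 10 genes, 9 were at least 2-fold lower on the log2 scale with a pseudocount of 1 CPM, where 2.03% of the 11212 genes with at least 200 UMIs were. The genes had been picked for this difference, so nothing is read from that contrast. Over all 11212 genes the median log2 ratio was −0.02, with quartiles of −0.27 and 0.22.

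The near-identical copies had the largest differences. Together they were at 2980 CPM in the Flox-labelled library and 288 CPM in the HKO-labelled library, a 10.4-fold difference (10.1 to 10.6). *Mup7* was at 217 and 2.07 CPM (9985 and 55 UMIs), which is 105-fold lower (80.6 to 140) in the HKO-labelled library and a log2 ratio of −6.15. *Mup1* was at 129 and 1.54 CPM (5912 and 41 UMIs), or 83.4-fold lower (61.4 to 116). *Mup11* was at 451 and 7.07 CPM (20698 and 188 UMIs), or 63.7-fold lower (55.2 to 73.9). These 3 held the lowest log2 ratios of all genes tested.

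*Mup12*, *Mup17* and *Mup9* also lay at the low end. *Mup12* was at 67.4 and 2.45 CPM, or 27.6-fold lower (21.6 to 35.8), and *Mup17* at 252 and 9.56 CPM, or 26.4-fold lower (23.3 to 29.96). *Mup9* was at 878 and 49.6 CPM (40349 and 1318 UMIs), or 17.7-fold lower (16.8 to 18.7). Within hepatocyte cluster 1 alone, the ratio of HKO-labelled over Flox-labelled CPM was 0.149 (0.0942 to 0.226) for *Mup17* and 0.00727 for *Mup9*, against 0.0379 and 0.0565 over all hepatocytes. With a log2 ratio of −4.12 over all hepatocytes *Mup9* was the last of 6 *Mup* genes among the 8 genes below −4 in these nuclei. *Mup10* differed from the other near-identical copies. It was assigned more UMIs than any other copy in both libraries, at 986 and 216 CPM (45285 and 5730 UMIs), and was 4.57-fold lower (4.45 to 4.70). Since none of its windows was its own, its level relative to the other copies is uncertain.

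*Mup3*, *Mup21* and *Mup20*, whose reads are not shared, differed less. *Mup3* was at 1071 and 278 CPM (49223 and 7395 UMIs), or 3.85-fold lower (3.76 to 3.95), and *Mup21* at 67.0 and 19.9 CPM (3078 and 528 UMIs), or 3.37-fold lower (3.07 to 3.71). *Mup20* was at 1643 and 1138 CPM (75500 and 30257 UMIs), or 1.44-fold lower (1.42 to 1.46) over all hepatocytes, and this direction did not hold throughout. Within hepatocyte cluster 0 it was higher in the HKO-labelled library, at a ratio of 1.13 (1.11 to 1.15), and within cluster 5, led by pericentral genes such as *Glul*, the ratio was 1.01 (0.962 to 1.07). Within cluster 1 the ratio was 0.416.

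The make-up of the *Mup* UMIs differed accordingly. *Mup20* supplied 28.5% of the UMIs of the 10 genes in the Flox-labelled library and 66.0% in the HKO-labelled library. *Mup9* supplied 15.2% and 2.88%, and *Mup11* 7.82% and 0.410%. The shares of *Mup3* (18.6% and 16.1%) and *Mup10* (17.1% and 12.5%) were closer. These are shares of assigned UMIs, which need not be shares of transcripts where copies share reads. Without *Mup20*, the sum was at 4118 and 586 CPM and was 7.03-fold lower (6.91 to 7.14).

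**Figure D1:**
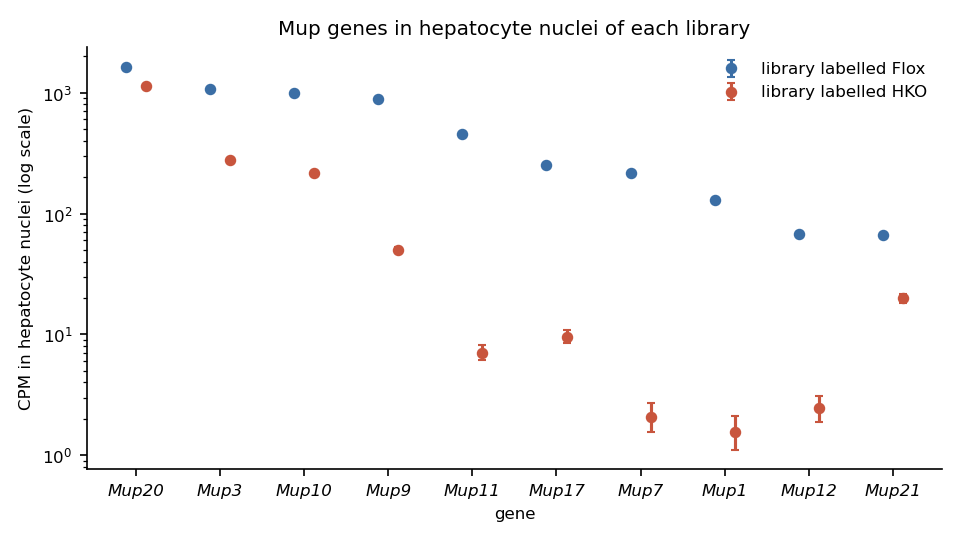
CPM of each of the 10 *Mup* genes (log axis) in hepatocyte nuclei with at least 3000 UMIs, in the Flox-labelled library (blue) and the HKO-labelled library (red), ordered by level in the former. Points are sums over nuclei of 1 library and bars are 95% Poisson intervals; the red points fall from 1138 CPM for *Mup20* to 1.54 for *Mup1*, while the blue points stay between 67.0 and 1643.

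Detection in single nuclei was compared as the share with at least 1 UMI among 3000 UMIs drawn at random from each nucleus (thinning), since the libraries differed in depth. *Mup3* was detected in 88.9% of hepatocyte nuclei (88.0 to 89.7) in the Flox-labelled library and in 45.8% (44.3 to 47.4) in the HKO-labelled library. *Mup20* was detected in 84.96% and 76.5%, *Mup10* in 75.6% and 30.6%, and *Mup9* in 53.8% and 8.05%. *Mup11* was detected in 46.9% and 2.04% and *Mup7* in 37.3% and 0.579%. All 10 genes were detected in fewer nuclei of the HKO-labelled library, *Mup20* with the smallest difference. For *Mup17* the shares were 26.1% and 2.59%, for *Mup1* 22.2% and 0.453%, for *Mup21* 14.4% and 4.73%, and for *Mup12* 12.6% and 0.755%.

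The difference between the libraries ran through most nuclei. After thinning, the 10 genes together had a median of 15 UMIs per nucleus in the Flox-labelled library, with a 5th percentile of 5 and a 95th of 35, and a median of 4 in the HKO-labelled library, with percentiles of 0 and 15. At least 10 UMIs were found in 78.6% of Flox-labelled nuclei and in 14.8% of HKO-labelled ones. The distributions overlapped between their medians, but few nuclei of either library lay at or beyond the median of the other. These were 204 of the 3973 nuclei of the HKO-labelled library (5.13%), at or above the Flox-labelled median. In the Flox-labelled library 261 of the 5672 nuclei (4.60%) were at or below the HKO-labelled median. The near-identical copies had at least 1 UMI in 88.9% and 35.2% of nuclei. *Mup20* had medians of 3 and 2 UMIs.

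**Figure D2:**
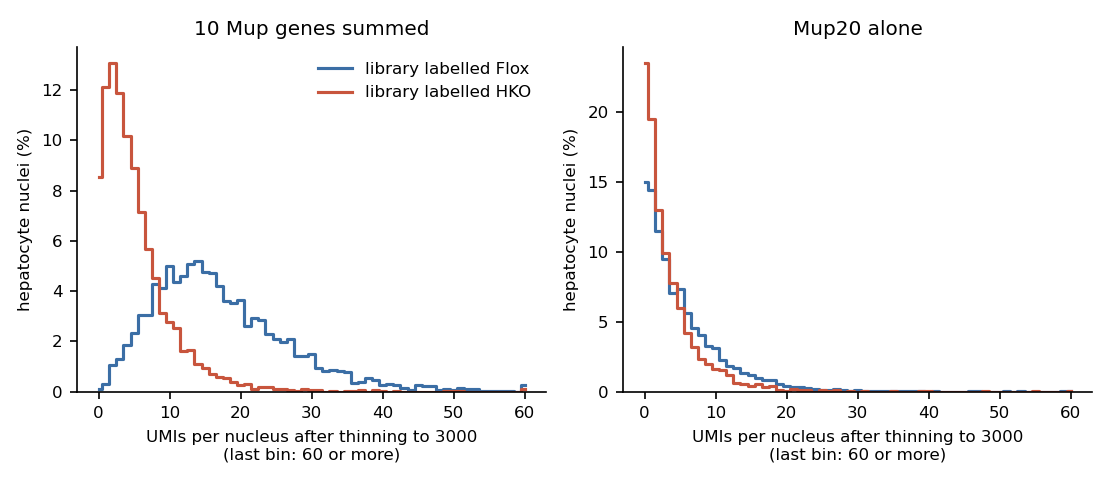
Share of hepatocyte nuclei (%) by number of UMIs after thinning to 3000, for the 10 *Mup* genes summed (left) and *Mup20* alone (right), in the Flox-labelled library (blue) and the HKO-labelled library (red). On the left the curves peak apart, with medians of 15 and 4 UMIs. On the right they overlap more, with medians of 3 and 2, and 17.6% and 8.61% of nuclei had at least 10 UMIs.

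Hepatocytes differ along the axis from the portal tract to the central vein, and the position of the *Mup* genes on it was examined next. Nuclei of each library were ranked by an index of 5 pericentral genes (such as *Glul* and *Cyp2e1*) minus 6 periportal genes (such as *Hal* and *Cyp2f2*), none of them a *Mup* gene, and split into 3 equal ranges, called zones here. A zone is a range of the index and no cell type, and 605 Flox-labelled nuclei (10.7%) and 478 HKO-labelled ones (12.0%) lay within 0.1 of a boundary. Markers kept out of the index followed it. In the Flox-labelled library, *Oat* was at 8.87, 25.5 and 272 CPM and *Sds* at 544, 82.9 and 3.56 CPM from the periportal over the middle to the pericentral zone.

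In the Flox-labelled library the 10 genes ran in opposite directions along this axis. *Mup17* rose most towards the central vein, from 14.3 to 163 and 591 CPM, a pericentral level 41.3 times the periportal one (36.0 to 47.6). *Mup9* followed, at 129, 725 and 1800 CPM, with a ratio of 13.9 (13.3 to 14.6), then *Mup11*, at 105, 498 and 741 CPM, a ratio of 7.09. *Mup10* had a ratio of 3.04 and *Mup7* of 2.80. *Mup12* and *Mup1* were less zonated, at 1.91 and 1.65. *Mup20* ran the other way, at 2671, 1459 and 832 CPM, and was 3.21-fold lower in the pericentral zone, with a ratio of 0.312 (0.305 to 0.318). *Mup21* had a ratio of 0.432 and *Mup3* one of 0.728. The size of some gradients depended on the processing, with *Mup17* at 26.4 after thinning and *Mup11* at 4.36 when zones were made by the markers kept out of the index, a setting that gave all 10 genes the same direction. In all, 5 genes were at least 2-fold higher and 2 at least 2-fold lower in the pericentral zone, where 3.41% and 2.97% of the 10487 genes tested were.

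The opposite gradients partly offset each other in the sum, which was at 5048, 5270 and 7037 CPM over the zones (ratio 1.39, 1.38 to 1.41). The near-identical copies together rose from 1005 to 2727 and 5235 CPM. In assigned UMIs, the periportal zone was therefore dominated by *Mup20* and *Mup3*, and the pericentral zone by *Mup9* and *Mup10*. Reads of the near-identical copies may be split or left uncounted, so their level relative to *Mup20* and *Mup3* is uncertain.

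In the HKO-labelled library 5 of the 7 near-identical copies, *Mup7*, *Mup9*, *Mup10*, *Mup11* and *Mup17*, were higher in the pericentral zone under every way of making the zones or counts that was tried, while *Mup20* was nearly level across the axis. *Mup1*, with 9 and 19 UMIs in the outer zones, had a ratio of 2.39 (1.03 to 5.99), whose interval held 1 under 3 of the 4 alternatives. *Mup9* was at 0.956, 37.4 and 117 CPM and had a ratio of 123 (64.4 to 269), with few UMIs in the periportal zone. *Mup10* was at 69.6, 203 and 394 CPM, a ratio of 5.66, and *Mup17* at 1.28, 8.03 and 20.5 CPM, a ratio of 16.1. *Mup20* was at 1122, 1247 and 1041 CPM, with a ratio of 0.928 (0.902 to 0.955). The intervals held 1 for *Mup3* (0.957, 0.906 to 1.01), *Mup21* (1.08, 0.871 to 1.34) and *Mup12* (1.96, 0.9999 to 3.98). With zones made by the markers kept out of the index, the ratio was 13.4 for *Mup9*, 4.10 for *Mup17* and 3.195 for *Mup10*, 1.01 for *Mup12* and 0.825 for *Mup21*. *Mup3* was then lower in the pericentral zone, at 0.803 (0.757 to 0.851), and also with a log2 index ranked over both libraries, at 0.907 (0.852 to 0.966). The background was 2.50% of 9397 genes at least 2-fold higher and 1.72% at least 2-fold lower in the pericentral zone.

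The difference between the libraries consequently depended on the zone for *Mup20*. Its ratio of HKO-labelled over Flox-labelled CPM was 0.420 (0.411 to 0.429) in the periportal zone, 0.855 in the middle zone and 1.25 (1.22 to 1.29) in the pericentral zone. Its direction thus turned along the axis, which no other member's did. The sum of the 10 genes had ratios of 0.300, 0.337 and 0.271. *Mup9* was at 0.00741, 0.0517 and 0.0652 of its Flox-labelled level, *Mup10* at 0.134, 0.230 and 0.251, and *Mup21* at 0.194, 0.328 and 0.484. The periportal value of *Mup9* was 0.0505 with zones made by the markers kept out of the index. The index was ranked within each library, and *Themis* itself differed along it, at 3.92, 166 and 314 CPM in the Flox-labelled library and 83.5, 282 and 405 CPM in the HKO-labelled library. Whether a zone holds the same stretch of the lobule in both libraries was not tested.

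**Figure D3:**
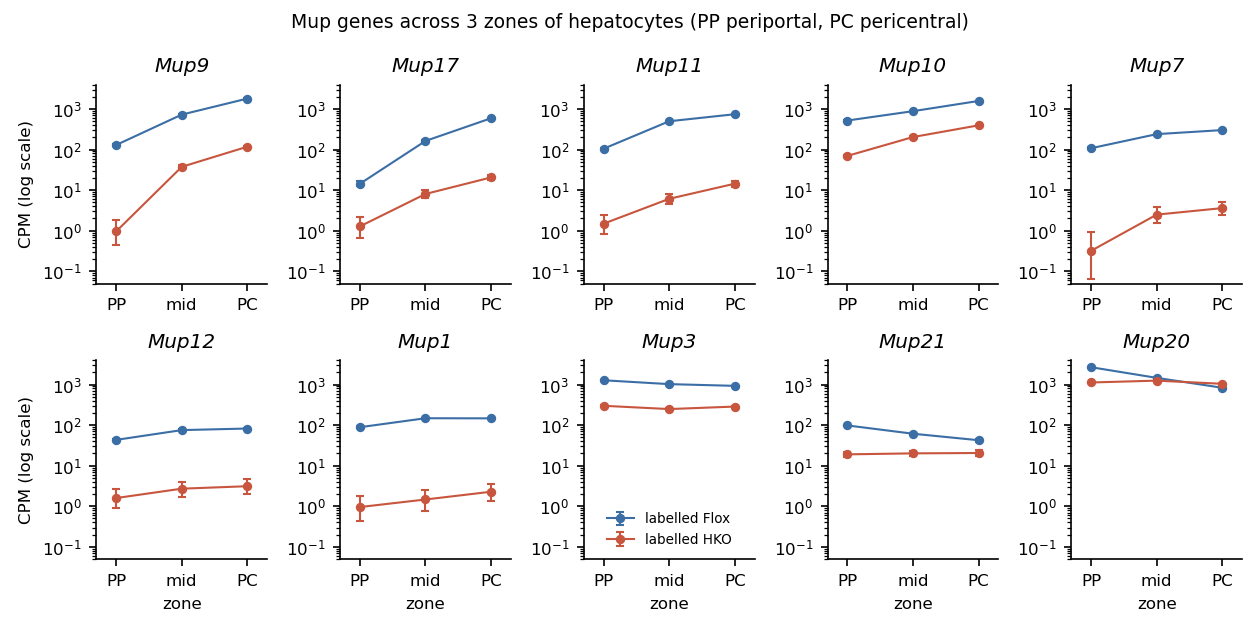
CPM (log axis) of each *Mup* gene in the periportal (PP), middle (mid) and pericentral (PC) zones of the zone index, in the Flox-labelled library (blue) and the HKO-labelled library (red), with 95% Poisson intervals. The blue lines of *Mup9*, *Mup17*, *Mup11*, *Mup10* and *Mup7* rise towards PC and those of *Mup20* and *Mup21* fall; the lines of *Mup20* cross, from 2671 and 1122 CPM at PP to 832 and 1041 at PC.

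The genes were next compared nucleus by nucleus. Counts thinned to 3000 UMIs were correlated between the 5672 nuclei of the Flox-labelled library, which share a library and a pool of mice, and the values are given as a description. *Mup9* went with *Mup10* (Pearson r 0.52) and with *Mup17* (0.50), and the 21 pairs of near-identical copies ranged from 0.09 to 0.52 with a median of 0.19. Copies that share reads would also be counted together, and the part of this in r was not tested. *Mup3* and *Mup20*, which share none, had an r of 0.38 but a Spearman's rho of only 0.203. *Mup20* had negative values with *Mup9* (−0.25) and *Mup10* (−0.23).

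Position on the portal-central axis moved with these correlations. Spearman's rho with the zone index was 0.624 for *Mup9*, 0.478 for *Mup10*, 0.438 for *Mup17* and −0.534 for *Mup20* in the Flox-labelled library. Within the periportal, middle and pericentral zones, r was 0.23, 0.44 and 0.38 for *Mup9* with *Mup10*, and 0.45, 0.34 and 0.16 for *Mup3* with *Mup20*. For *Mup9* with *Mup20* it was −0.11, −0.13 and −0.04, closer to 0 than over all nuclei. In the 3973 nuclei of the HKO-labelled library, where most counts were low, the highest values were 0.28 for *Mup9* with *Mup10* (rho 0.258) and 0.22 for *Mup3* with *Mup20* (rho 0.0750), and the median of the 21 pairs was 0.03.

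**Figure D4:**
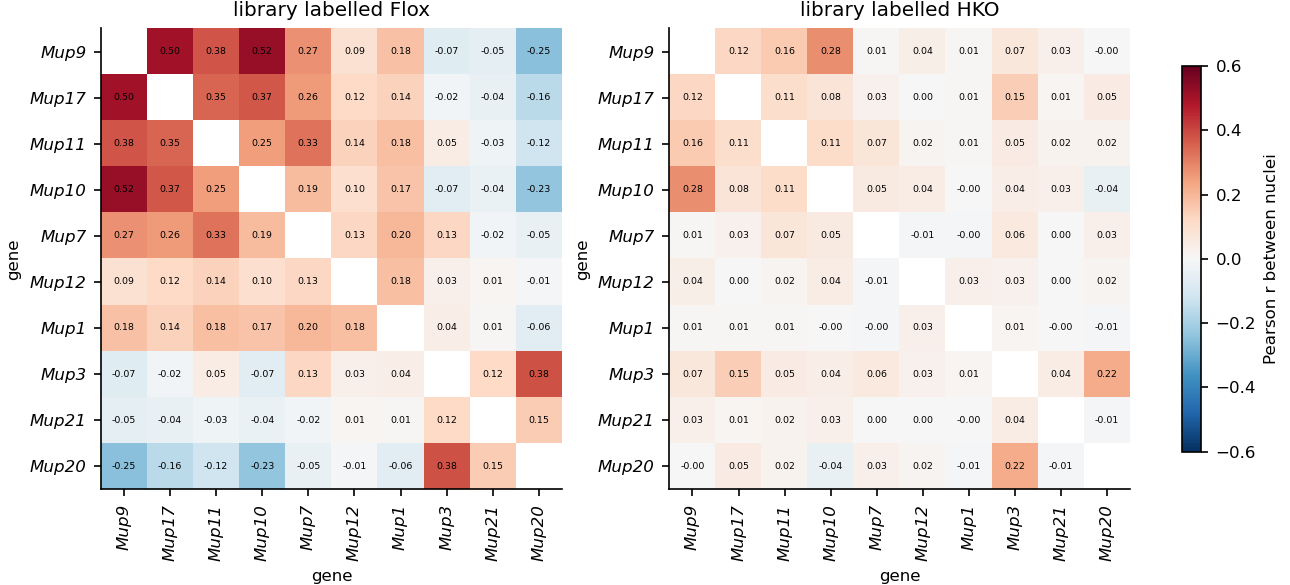
Pearson r between hepatocyte nuclei for each pair of *Mup* genes (both axes list the genes), from counts thinned to 3000 UMIs, in the Flox-labelled library (left, n = 5672) and the HKO-labelled library (right, n = 3973); red is positive and blue negative. On the left a block of 7 near-identical copies reaches 0.52 and *Mup20* is blue against *Mup9* and *Mup10*; on the right 0.28 is the highest value.

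The 8 genes most like the *Mup* sum between nuclei of the Flox-labelled library, by rho over 3947 genes, were *Ces3a*, *Gm13775*, *Car3*, *Mug1*, *Akr1c6*, *Gm26917*, *Slco1a1* and *Cyp2c50*. Likeness was weak, from 0.198 for *Ces3a*, a carboxylesterase, to 0.157 for *Cyp2c50*, a cytochrome P450, where the 95th percentile of all these genes was 0.0425. In the HKO-labelled library rho was 0.138 for *Car3*, a carbonic anhydrase, 0.114 for *Slco1a1*, an organic anion transporter, and 0.0758 for *Ces3a*, where the 95th percentile was 0.0447. *Mug1*, at 0.0276, and *Cyp2c50*, at 0.0130, lay below it. For *Gm26917* the sign differed, at 0.170 and −0.163.

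*Mup* UMIs were also found in nuclei of other types, in which these genes are not known to be expressed, and their amount differed among the members. In the Flox-labelled library the 10 genes summed to 1873 CPM (1794 to 1955) in 776 endothelial nuclei, to 1313 in 835 HSC nuclei and to 1198 in 545 macrophage nuclei, which is 32.4%, 22.7% and 20.7% of their level in all hepatocyte nuclei. The median depth of these nuclei was 1312.5, 1775 and 2149 UMIs. Other secreted proteins of hepatocytes lay in the same range in endothelial nuclei, with *Alb* at 58.01%, *Ttr* at 52.8%, *Serpina1c* at 35.8%, *Apoa1* at 31.8% and *Apob* at 15.7% of their hepatocyte level.

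*Mup9* and *Mup10* stood far below this range. *Mup9* was at 17.9 CPM in endothelial nuclei (20 UMIs), 2.05% of its hepatocyte level (1.25 to 3.17), and *Mup10* at 22.4 CPM (25 UMIs), or 2.28% (1.48 to 3.37). *Mup3* was at 54.4%, *Mup20* at 50.5%, *Mup7* at 47.7%, *Mup11* at 33.0%, *Mup17* at 30.5% and *Mup1* at 18.1%. They were also the lowest members in HSC nuclei, where *Mup9* was at 1.24% and *Mup10* at 1.36%, and in macrophage nuclei, where they were at 1.27% and 1.45%. *Mup10* thus made up 17.0% of the *Mup* UMIs of hepatocyte nuclei and 1.20% of those of endothelial nuclei, and *Mup9* 15.1% and 0.956%. In the HKO-labelled library, *Mup10* was at 2.21% of its hepatocyte level in endothelial nuclei (6 UMIs) and *Mup9* at 4.81% (3 UMIs, 0.991 to 14.1), against 68.6% for *Mup3* and 56.5% for *Mup20*. The ratio of *Mup9* and *Mup10* to *Mup20* thus differed between hepatocyte nuclei and those of the other types.

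**Figure D5:**
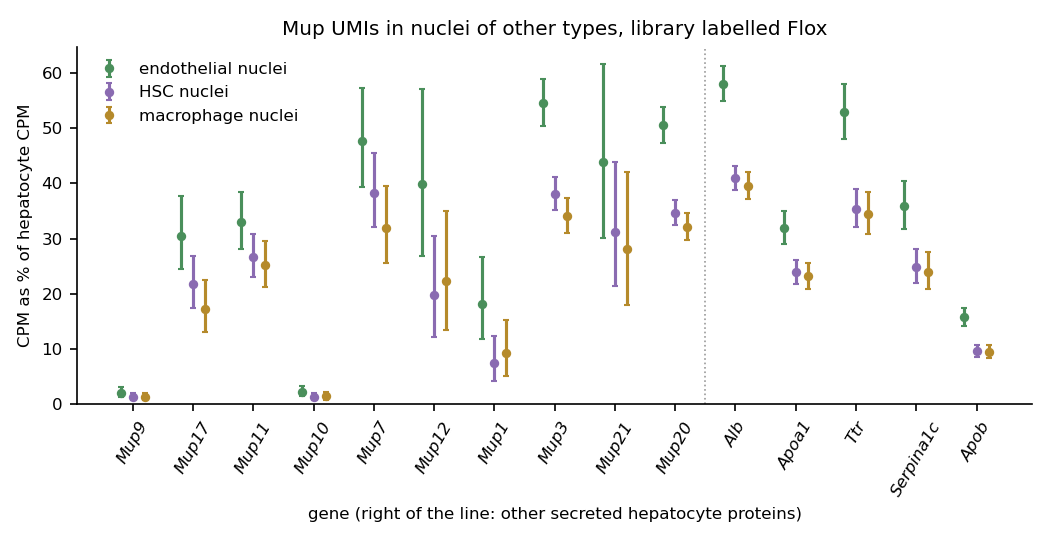
CPM of each *Mup* gene, and of 5 other secreted hepatocyte proteins right of the dotted line, in endothelial (green), HSC (purple) and macrophage (yellow) nuclei of the Flox-labelled library, as a percentage of the CPM in hepatocyte nuclei, with 95% intervals. *Mup9* and *Mup10* sit at 2.28% or below in all 3 types, while *Mup3* and *Mup20* reach 54.4% and 50.5% in endothelial nuclei.

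The share of hepatocyte nuclei with a *Mup* UMI was also set beside that of endothelial nuclei. The endothelial nuclei were much shallower before thinning, so their share is not a measured background for hepatocyte nuclei. After thinning to 1000 UMIs, any of the 10 genes was detected in 97.3% of hepatocyte and 75.8% of endothelial nuclei of the Flox-labelled library (median depths before thinning 7535 and 1392 UMIs), and in 68.9% and 42.2% of those of the HKO-labelled library (6150 and 1212 UMIs). *Mup10* was detected in 50.04% of hepatocyte and 1.82% of endothelial nuclei in the former and in 15.3% and 0.373% in the latter. *Mup9* was detected in 37.4% and 1.82%, and in 3.55% and 0.187%. Both were above the endothelial share in both libraries.

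For 6 genes the intervals of the hepatocyte and the endothelial share overlapped in the HKO-labelled library, and the difference was not tested. *Mup7*, at 0.176%, *Mup12*, at 0.176%, and *Mup1*, at 0.126%, were detected in 0 of 536 endothelial nuclei each, which allows a share of up to 0.560% by a floor of 3 counts (0.686% by the exact interval). *Mup11* was detected in 0.654% and 0.560%, *Mup17* in 0.931% and 0.373% and *Mup21* in 1.56% and 0.373%. Only for *Mup21* of these 6 did the CPM in all hepatocyte nuclei, 19.9 (18.3 to 21.7), and in endothelial nuclei, 5.48 (2.20 to 11.3), have separate intervals. *Mup3* (22.1% and 13.1%) and *Mup20* (50.8% and 33.2%) were above the endothelial share. Outside hepatocytes the sum of the 10 genes was also lower in the HKO-labelled library, by 2.10-fold (1.95 to 2.25) in endothelial, 2.19-fold in HSC and 1.89-fold in macrophage nuclei.

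The other 12 *Mup* genes were also compared. Several of them share reads with the near-identical copies. In the transcripts used, the share of windows found in that gene alone was 18.6% for *Mup16* and *Mup18* and 0 for *Mup2* and *Mup14*. Their counts may therefore hold reads of the 10 genes, which was not tested. All 22 genes together had 270043 and 46120 UMIs in hepatocytes, so the 10 genes carry nearly all of them. Only 4 of the other 12 had at least 200 UMIs, and 3 of these were at least 2-fold lower in the HKO-labelled library, where 2.03% of all genes were. All 4 passed this filter through the Flox-labelled library alone, in which they were higher, so nothing is read from that contrast. *Mup16* was at 37.6 and 1.77 CPM (21.3-fold lower, 15.9 to 29.1), *Mup14* at 60.1 and 4.14 CPM (14.5-fold) and *Mup2* at 4.55 and 1.35 CPM (3.36-fold). *Mup18* was at 5.90 and 3.42 CPM, or 1.72-fold lower (1.35 to 2.21). For *Mup15*, 196 and 1 UMIs gave a ratio of 0.00882 (0.000222 to 0.0497), and for *Mup19*, 97 and 1 gave 0.0178 (0.000447 to 0.102). *Mup8* had 62 UMIs, or 1.35 CPM, and 0, which allows up to 0.113 CPM by the floor of 3 counts. *Mup5*, *Mup6*, *Mup13* and *Mup22* had at most 8 UMIs, and *Mup4* was left out as detected in fewer than 3 nuclei.

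Since MUPs are among the best known male-biased products of the liver, other genes with sex-biased expression were compared, with lists that were made with results of these data known. Of 18 male-biased genes, 16 had at least 200 UMIs, of which 11 were at least 2-fold lower in the HKO-labelled library and 0 higher, where 2.03% and 1.94% of all genes were. Their median log2 ratio was −1.41, beside −0.02 over all genes. *Cyp4a12b* and *Hsd3b5* passed the UMI filter through the Flox-labelled library alone, and nothing is read from the contrast with all genes. *Serpina1e*, a serine protease inhibitor, was at 339 and 7.68 CPM (44.2-fold lower), *Selenbp2*, which encodes a selenium-binding protein, at 569 and 29.4 CPM (19.3-fold) and *Slco1a1* at 326 and 43.5 CPM (7.49-fold). *Cyp2d9*, a male-biased cytochrome P450, was at 777 and 257 CPM (3.03-fold), and *C6*, a complement component, at 343 and 120 CPM (2.86-fold). *Nudt7*, which encodes a hydrolase of coenzyme A, was at 268 and 185 CPM. The one gene that was higher, named after its values were seen, was *Csad*, at 70.3 and 94.5 CPM.

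The 9 female-biased genes with at least 200 UMIs had the opposite direction. Of 23 listed, 17 were in the filtered table and 9 had at least 200 UMIs, of which 8 were at least 2-fold higher in the HKO-labelled library, where 1.94% of all genes were. Their median log2 ratio was 2.37. *Cyp2a4*, *Cyp2b13*, *Slc22a27* and *Sult1e1* passed this filter through the HKO-labelled library alone. Nothing is therefore read from that contrast. *Cyp3a41a*, *Cyp3a41b*, *Cyp3a44*, *Cyp3a16*, *Sult2a1* and *A1bg* were not in the filtered table. Of those with fewer UMIs, *Cux2* (6 and 2) and *Cyp2c69* (4 and 1) had a lower CPM in the HKO-labelled library and the others a higher one. *Slco1a4*, an organic anion transporter, was at 53.7 and 300.2 CPM (5.59 times), *Cyp2b9*, a female-biased cytochrome P450, at 4.96 and 72.8 CPM (14.7 times) and *Cyp17a1*, an enzyme of steroid synthesis, at 7.73 and 31.6 CPM (4.09 times). *Abcd2*, a peroxisomal transporter, was at 5.77 and 24.0 CPM (4.17 times), and *Acot3*, an acyl-CoA thioesterase, at 12.6 and 21.3 CPM (1.69 times). *Cyp2a4*, a steroid hydroxylase, had 2 and 598 UMIs, a ratio of 517 (142 to 4277). The Y-linked transcripts given above were as high in the HKO-labelled library as in the Flox-labelled library, with any of 4 of them in 81.2% of Flox-labelled and 85.8% of HKO-labelled hepatocyte nuclei after thinning.

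Genes of growth hormone signalling and of the factors that govern *Mup* expression differed in both directions, more often upwards. Of 25 genes tested, 5 (20%) were at least 2-fold higher and 1 (4%) lower in the HKO-labelled library, where 1.94% and 2.03% of all genes were, and their median log2 ratio was 0.14. The growth hormone receptor gene *Ghr* was at 448 and 504 CPM, and *Zbtb20*, a repressor of fetal liver genes, at 1955 and 1962 CPM. *Nr1i3*, a nuclear receptor, was at 2099 and 1679 CPM and *Insr*, the insulin receptor gene, at 311 and 367 CPM. *Igf1*, the main target of growth hormone in the liver, was higher, at 343 and 722 CPM (2.11 times, 2.06 to 2.15), and so was *Prlr*, the prolactin receptor gene, at 110 and 370 CPM (3.37 times). The other genes past 2-fold, named after their values were seen, were *Socs2* (4.74 times) and *Cish* (4.74 times), which encode feedback inhibitors of this pathway, *Onecut1* (2.49 times), a liver transcription factor gene, and *Socs3*, another feedback inhibitor, at 28.2 and 10.6 CPM (2.67-fold lower). *Igf1*, *Socs2* and *Cish* were thus higher in the library in which the *Mup* genes were lower, whereas *Socs3* was lower. By any amount, 17 of the 25 genes were higher and 8 lower. Among the latter, also named after their values were seen, *Bcl6* had a ratio of 0.581 (0.554 to 0.609) and *Igfals* one of 0.692 (0.580 to 0.823). *Stat5b*, which encodes STAT5B, was at 52.6 and 65.7 CPM. Whether growth hormone signalling differed between the libraries was not tested.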

How the data were processed

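snRNA-seq was performed by the authors on sorted nuclei from pooled frozen liver tissue, 1 library per genotype. The authors deposited raw UMI counts per gene and nucleus, which Cell Ranger 8.0.1 had produced without intronic reads from the 10x Genomics transcriptome of GRCm38. How Cell Ranger treated reads that match several *Mup* copies is not given in the sources used here. The gene filter of the study's methods had not been applied to the deposited matrices.

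Nuclei with at least 300 genes and genes in at least 3 nuclei were kept (20023 of 32285 genes). Scrublet in scanpy 1.11.5 marked doublets at 0.8% per 1000 barcodes, and 701 and 920 were removed, which left 8659 and 9801 nuclei. Seurat 5.3.0 (in R 4.3.3) integrated the libraries, and clusters were named as resembling a type from marker lists. The baseline for naming was settled after the clusters had been seen.

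For CPM, UMIs were summed over the nuclei of a type and scaled to their total. Shallower hepatocyte nuclei (184 and 577) were left out. Log2 ratios used a pseudocount of 1 CPM. Ratios carry exact conditional binomial intervals, CPM exact Poisson and shares Clopper-Pearson intervals, in scipy 1.17.1. Thinning drew UMIs without replacement. The calculations were tested on simulated data. A 3′ count does not grow with transcript length, so CPM was not divided by length, but levels of the near-identical copies are not comparable between genes where reads are shared. edgeR 4.0.16 gave TMM factors for an alternative only. Coding sequences were aligned with biopython 1.88.

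Named were all *Mup* genes, the first 6 genes of each list by UMIs, and the 8 genes most like the *Mup* sum. The genes, lists and alternatives were chosen with earlier results of these data known. The Flox-labelled library carries the word WT in its title and was placed by its genotype field.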

Additional observations from a re-analysis of the deposited data

Results flagged for a closer look

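*Mup20* differed between the libraries in opposite directions at the ends of the portal-central axis. Its CPM in the HKO-labelled library was 0.420 times that in the Flox-labelled library in the periportal zone (0.411 to 0.429) and 1.25 times in the pericentral zone (1.22 to 1.29), with 0.855 between them. The difference between the zones was not tested, since there was 1 library per genotype. Over 3 other ways of making the zones or the counts, the periportal ratio lay between 0.418 and 0.428 and the pericentral ratio between 1.16 and 1.18.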

How the results depend on the processing

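With 1 library per genotype, no replicate could be left out, and the values of *Mup1*, *Mup7* and *Mup12* in the HKO-labelled library rest on 41, 55 and 65 UMIs. No paired analysis was possible because each group had 1 library. The ratio of the *Mup* sum, 0.299, kept its direction under all 12 alternatives. It was 0.306 with nuclei of at least 1000 UMIs, 0.309 after thinning, 0.296 with TMM factors, and, in alternatives chosen after seeing the data, 0.282 without nuclei with at least 2 of 6 markers of disease-associated hepatocytes (daHep) and 0.322, 0.286 and 0.231 within hepatocyte clusters 0, 1 and 5. Of the single genes, *Mup20* reversed in cluster 0, to 1.13, and had a ratio of 1.01 in cluster 5 (0.962 to 1.07), which holds 1. The count of 9 genes at least 2-fold lower was the same under 5 alternatives. Within cluster 1 the ratio was 0.00727 for *Mup9*, 0.00308 for *Mup7* and 0.149 (0.0942 to 0.226) for *Mup17*, and within cluster 5 it was 0.0248 for *Mup1* and 0.0326 for *Mup11*. With a pseudocount of 10 CPM the growth hormone list had 0 genes at least 2-fold lower, while the male-biased count ranged from 8 to 11 and the female-biased count from 6 to 8. Without thinning, any of the 10 genes was found in 100% of Flox-labelled nuclei and 97.2% of HKO-labelled ones. The pericentral over periportal ratio of the sum was 1.37, 1.36 and 1.25 in the Flox-labelled library and 1.22, 1.16 and 1.14 in the HKO-labelled library with a pooled log2 index, zones by the markers kept out of the index, and thinning. With doublets kept, the *Mup* level of endothelial, HSC and macrophage nuclei was 35.3%, 25.8% and 22.5% of that of hepatocytes in the Flox-labelled library and 61.4%, 42.5% and 40.8% in the HKO-labelled library. With clusters made in each library on its own, the endothelial value of the HKO-labelled library was 45.8%, and no macrophage value could be computed for lack of a named cluster of 50 nuclei. The causes of these shifts were not tested.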

Other observations

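*Selenbp2*, *Serpina1e*, *Slco1a1* and *Cyp2d9*, the only genes of the male-biased list examined by zone, did not share one, as the *Mup* genes did not. In the Flox-labelled library, *Serpina1e* was at 736, 241 and 57.6 CPM from the periportal over the middle to the pericentral zone, the direction of *Mup20*. *Selenbp2*, at 671, 617 and 412 CPM, ran the same way. *Slco1a1*, at 152, 312 and 515 CPM, and *Cyp2d9*, at 501, 821 and 1001 CPM, ran in the direction of *Mup9*. In the HKO-labelled library these gradients kept their direction. Pericentral levels were 0.0961 times the periportal one for *Serpina1e*, 0.399 times for *Selenbp2*, 39.7 times (26.7 to 61.8) for *Slco1a1* and 3.38 times for *Cyp2d9*.

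Hepatocyte nuclei with at least 2 of 6 daHep markers had a lower *Mup* sum than other hepatocytes in the Flox-labelled library and a higher one in the HKO-labelled library, and this difference was not tested. In the Flox-labelled library, 551 such nuclei were at 5076 CPM and the other 5121 at 5836. In the HKO-labelled library, 783 were at 2044 CPM and the other 3190 at 1646, where *Mup20* alone was at 1541 and 1040 CPM and the other members together at 502 and 606. Shallow hepatocyte nuclei, under 3000 UMIs, were at 7389 and 2940 CPM for the 10 genes, a ratio of 0.398.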
